A study of Sus scrofa with 36 samples.

Results

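The TSH receptor and the genes that carry its signal through cyclic AMP were followed in the thyroid glands of 36 castrated male growing pigs, 1 pig per 1-colour Agilent porcine array. The set was named by 10 genes, and a probe was taken when its gene name equalled one of them or its description held the name in round brackets. Of the 10 genes, 8 had at least 1 probe, with 31 probes in all among the 60305 on the array, whose gene names matched 10437 RefSeq symbols. TSHR, ADCY3 and CREM had 1 probe each, ADCY6, ADCY9, PRKACA and PRKACB 2 each, and GNAS 20. No probe met the rule for PDE4D or PDE8B, so these phosphodiesterase genes were not analysed here. Testing required that in some group 5 or all 6 arrays read a probe well above background, which held for 28 of the 31 probes and for 46222 of all probes.

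The pigs were Creole (CR), Large White (LW) or F1 (a Large White by Creole cross), and the labels gave an ambient temperature of 24 or 30 °C, which made 6 groups of 6. The protocol text gave the hot condition as 32 °C held for 5 days, and the labelled 30 °C is used as the group name. Slaughter came before the exposure in the 24 °C pigs and after it in the hot pigs, so the temperature and the time of slaughter cannot be told apart. All animals shared sex and castration. The paper arranged each breed in blocks of littermates and in shared pens. Litter, pen and slaughter day were not in the labels, so the tests treated related pigs as separate animals. The p-values measure the spread between these pigs, not between litters.

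Thyrotropin (TSH) from the pituitary binds its receptor, TSHR, on the follicular cell. The receptor acts mainly through the stimulatory G protein, whose alpha subunit is encoded by GNAS, and the G protein activates membrane adenylyl cyclases (ADCY genes), which make cyclic AMP (cAMP). cAMP releases the catalytic subunits of protein kinase A (PRKACA and PRKACB), which phosphorylate the CREB and CREM transcription factors at cAMP response elements, while phosphodiesterases break cAMP down. In the thyroid this route drives iodide uptake, hormone synthesis and follicular cell growth.

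Values are log2 of the quantile-normalized median spot intensity, differences are on that log2 scale, and a probe was called at a limma p adjusted over all tested probes (Benjamini-Hochberg) under 0.05. The intensity of one probe was not set against that of another, since probes differ in how strongly they bind. The median spot intensity of an array ran from 132.5 to 173 units against 25 to 28 for the negative controls, and no spot was saturated. All 6 tested follicular cell markers (TG, SLC5A5, PAX8, IYD, HHEX and SLC26A7) were well above background on all 36 arrays, as the tissue label says.

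The probe sequences that carry the results below are shown first, as the scanner files give them, 5′ to 3′ and 60 bases each. The 6 GNAS sequences are the tested probes that lie furthest 5′ on their transcript records (O7998 by its overlap), of which the first 5 differed between breeds and the last did not. Capitals mark the 57 bases that A_72_P613612 and O7998 have in common, so these probes read 1 stretch of the transcript. The TSHR, ADCY3 and ADCY6 probes follow, TSHR and ADCY3 because each is the only probe of its gene and ADCY6 because its intensity fell into separate ranges.
GNAS A_72_P442472: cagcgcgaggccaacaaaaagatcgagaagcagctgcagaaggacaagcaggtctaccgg
GNAS A_72_P613612: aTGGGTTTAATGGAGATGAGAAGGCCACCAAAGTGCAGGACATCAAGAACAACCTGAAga
GNAS O7998: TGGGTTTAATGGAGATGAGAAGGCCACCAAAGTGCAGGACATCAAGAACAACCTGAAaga
GNAS A_72_P550778: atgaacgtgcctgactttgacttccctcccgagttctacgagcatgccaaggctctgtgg
GNAS A_72_P403938: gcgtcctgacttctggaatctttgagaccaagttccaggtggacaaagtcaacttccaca
GNAS A_72_P563000: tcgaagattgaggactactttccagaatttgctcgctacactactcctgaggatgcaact
TSHR A_72_P223732: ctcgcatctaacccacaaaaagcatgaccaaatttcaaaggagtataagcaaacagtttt
ADCY3 O7667: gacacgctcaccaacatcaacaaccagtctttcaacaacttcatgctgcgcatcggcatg
ADCY6 O13026: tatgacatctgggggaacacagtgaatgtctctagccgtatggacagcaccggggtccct

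The first comparison asked whether these genes differed between hot and 24 °C pigs over the 3 breeds. None of the 28 member probes was called, while 545 of all tested probes (1.18%) were. At an unadjusted p under 0.05, limma gave 3 member probes, 1 each of ADCY6, PRKACA and CREM, and 4503 of all tested probes (9.74%). The probe changes were small for most members, with 17 of the 28 probes higher and 11 lower in hot pigs and a median change of 0.01, against 0.01 over all tested probes.

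For the receptor, the 18 pigs at 24 °C ranged from 7.97 to 9.09 with a median of 8.59, and the 18 hot pigs from 8.11 to 8.996 with a median of 8.77. The ranges overlapped almost entirely, although 13 of the 18 hot pigs lay above the 24 °C mean of their breed. TSHR was 0.15 ± 0.08 (SE) higher in hot pigs, or 10.6%, with a 95% interval from −0.02 to 0.31 and an adjusted p of 0.61 (limma), so a rise of more than 0.31 lay outside the interval. The 6 LW pigs had the largest estimate, 0.22 ± 0.15, from 8.67 ± 0.23 (SD, n = 6) at 24 °C to 8.89 ± 0.13 when hot. The CR estimate was 0.13 ± 0.15 and the F1 estimate 0.08 ± 0.15, and the 3 did not differ in limma's interaction test over all probes (adjusted p = 1.00).

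**Figure D1:**
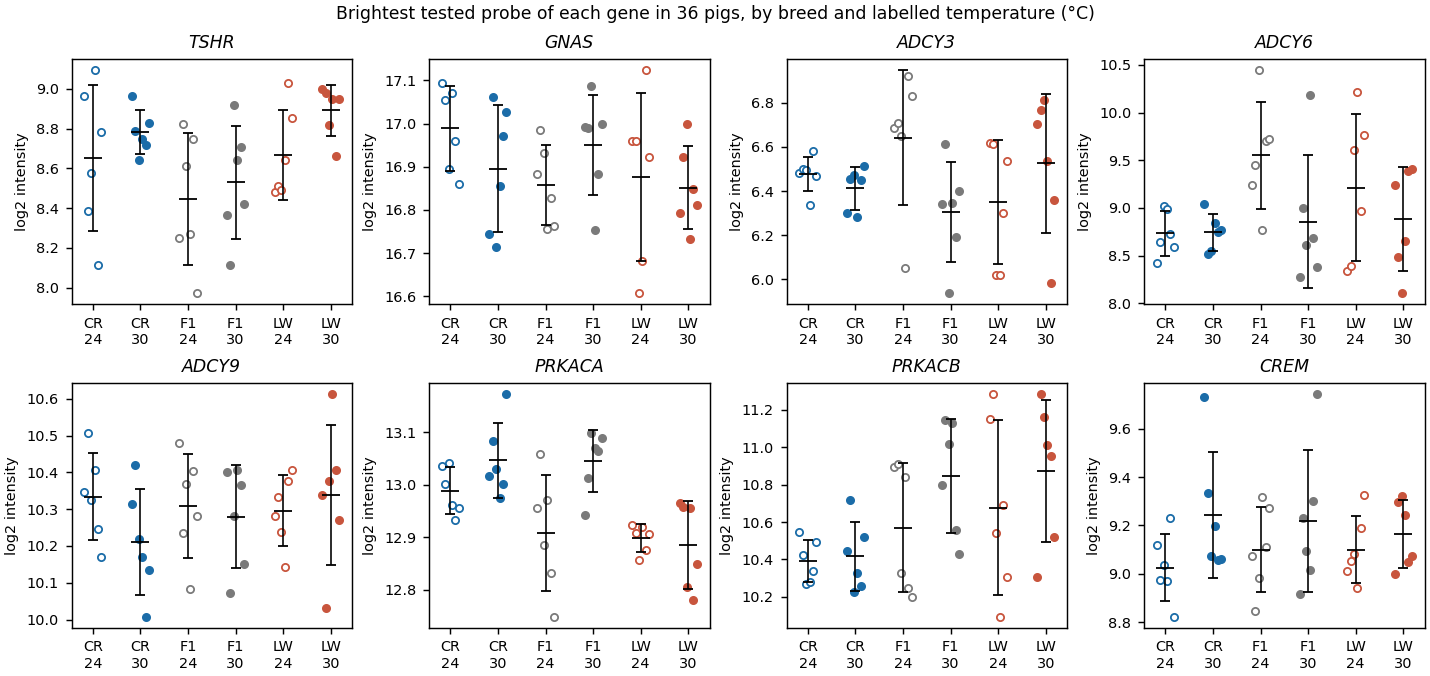
Log2 intensity of the brightest tested probe of each gene (y axis, a scale of its own in each panel) in the 36 pigs by breed and labelled temperature (x axis, °C), with open points for 24 °C, filled points for hot pigs, and black bars for the mean ± SD of 6 pigs. The hot and 24 °C pigs overlap in every panel, and the CR pigs of ADCY3, ADCY6 and PRKACB lie closer together than the F1 and LW pigs.

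GNAS, which encodes the alpha subunit of the stimulatory G protein, was read by 17 tested probes. Its brightest probe, A_72_P601788, ranged from 16.61 to 17.12 at 24 °C (median 16.93) and from 16.71 to 17.09 in hot pigs (median 16.90). The change was −0.01 ± 0.05, with 9 of the 18 hot pigs above and 9 below the 24 °C mean of their breed. A change beyond 0.10 in size was outside the 95% interval (−0.10 to 0.08). Of the 3 GNAS probes left untested, 2 lie towards the 5′ end of transcript variant 4 and were well above background on 4 of the 36 arrays each, and the last of them on 0 arrays.

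Among the adenylyl cyclases, which make cAMP, ADCY6 had the largest heat estimates of the set. On its brightest probe, A_72_P192417, the 24 °C pigs ranged from 8.33 to 10.44 (median 9.01) and the hot pigs from 8.11 to 10.18 (median 8.71), a change of −0.34 ± 0.18 (adjusted p = 0.55, limma). The other probe, O13026, changed by −0.59 ± 0.27 (permutation p = 0.045, limma adjusted p = 0.46). Both estimates were near 0 in CR pigs, at 0.01 ± 0.30 and −0.12 ± 0.47, and −0.70 ± 0.30 and −0.86 ± 0.47 in F1 pigs. This difference between breeds did not pass limma's interaction test (adjusted p = 1.00 for A_72_P192417). Limma took the SEs within breeds from a spread pooled over all groups. The within-group SD was 0.22 in CR and 0.63 in F1 pigs on A_72_P192417, and 0.16 and 1.02 on O13026. The pooled SEs are thus too wide for CR pigs and too narrow for F1 pigs. On O13026, 8 pigs at 24 °C and 4 hot pigs lay above a gap from 7.22 to 8.17. Its heat change therefore averages over separate ranges.

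ADCY3 changed by −0.08 ± 0.08 over all breeds (adjusted p = 0.87), and 12 of the 18 hot pigs lay below the 24 °C mean of their breed. The breeds pointed in different directions, with −0.34 ± 0.13 in F1 pigs (limma adjusted p = 0.34) and 0.18 ± 0.13 in LW pigs. The interaction test of ADCY3 gave an adjusted p of 1.00. ADCY9 changed by −0.04 ± 0.05 on its brightest probe and by 0.00 ± 0.05 on the other.

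Of the catalytic subunits of protein kinase A, PRKACA was 0.06 ± 0.03 higher in hot pigs on its brightest probe (permutation p = 0.022, limma adjusted p = 0.50) and 0.05 ± 0.04 higher on the other. The brightest probe ranged from 12.75 to 13.06 at 24 °C and from 12.78 to 13.17 in hot pigs, and 14 of the 18 hot pigs lay above the 24 °C mean of their breed. PRKACB was 0.17 ± 0.10 higher (adjusted p = 0.65) on its brightest probe and 0.03 ± 0.05 higher on the other. CREM, a cAMP-responsive transcription factor, was 0.13 ± 0.07 higher (permutation p = 0.050, limma adjusted p = 0.51), with 12 of 18 hot pigs above the 24 °C mean of their breed. A single hot pig reached 9.73 in CR and another 9.74 in F1, where no 24 °C pig passed 9.33. The medians were 9.06 at 24 °C and 9.15 in hot pigs.

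Within single breeds no member probe was called. Over all tested probes, 179 (0.387%) were called in CR, 177 (0.383%) in F1, 0 (0%) in LW and 0 (0%) in the interaction of breed and heat. At an unadjusted p under 0.05, limma gave 0 member probes in CR, 3 in F1, 0 in LW and 1 in the interaction, against 2656, 4918, 1852 and 2157 of all tested probes.

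**Figure D2:**
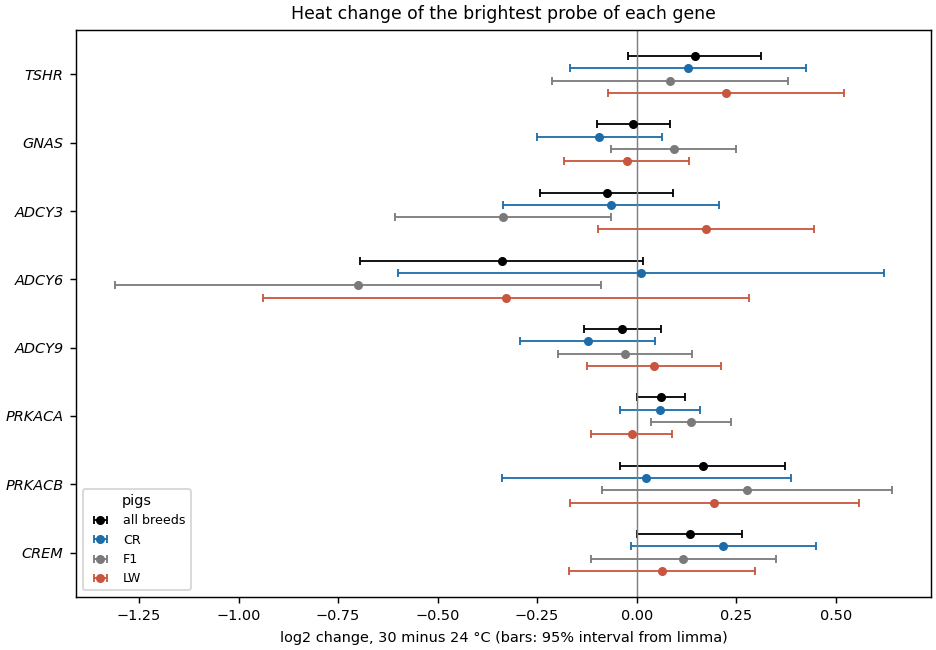
Log2 change from 24 to 30 °C (x axis) of the brightest probe of each gene (y axis) over all breeds (black) and within CR, F1 and LW, with 95% intervals from limma. All intervals over all breeds reach 0 or lie within 0.01 of it, and those of ADCY6 are the widest.

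Breed was the second axis of the design, and here some members were called. Between LW and CR pigs, 9 of the 28 member probes were called, 7 higher and 2 lower in LW, where 5965 of all tested probes (12.9%) were. The 9 probes belonged to GNAS (5), PRKACA (2) and PRKACB (2), and probes of 1 gene are not separate results. Between F1 and CR pigs, 4 GNAS probes were called, all higher in F1, where 1561 of all tested probes (3.38%) were. Between F1 and LW pigs, 0 member probes were called, where 920 of all tested probes (1.99%) were. An unadjusted p under 0.05 (limma) was reached by 4 member probes and by 6187 of all tested probes (13.4%).

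The called GNAS probes were the tested probes that lie furthest 5′ on transcript variants 7 and 4, while the 2 probes still further 5′ on variant 4 were too dim to test. A_72_P537682 and A_72_P348513 belong to other records, were not placed along these variants and were not called. On A_72_P442472, the most 5′ probe of transcript variant 7, CR pigs ranged from 9.56 to 10.11 (median 9.85), F1 pigs from 9.82 to 10.47 (median 10.16) and LW pigs from 9.86 to 10.67 (median 10.19). The ranges overlapped, but all 12 LW pigs and 11 of the 12 F1 pigs lay above the CR mean. LW exceeded CR by 0.36 ± 0.08 (adjusted p = 0.0019, limma) and F1 exceeded CR by 0.33 ± 0.08 (adjusted p = 0.014).

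The overlapping probes A_72_P613612 and O7998 gave 0.29 ± 0.07 and 0.32 ± 0.07 for LW minus CR, and 0.29 ± 0.07 on both for F1 minus CR. A_72_P550778 gave 0.24 ± 0.07 (adjusted p = 0.017) and 0.25 ± 0.07 (adjusted p = 0.040). A_72_P403938, the next along variant 4, gave 0.17 ± 0.06 for LW minus CR (adjusted p = 0.048) and 0.14 ± 0.06 for F1 minus CR, which was not called (adjusted p = 0.22).

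The sixth sequence shown, A_72_P563000, starts 314 bases further 3′ than A_72_P403938 and did not follow. Its LW minus CR difference was 0.01 ± 0.05, with a 95% interval from −0.09 to 0.12 that stops short of the estimates of all 5 called probes. The 12 GNAS probes that were not called ranged from −0.15 to 0.01 for LW minus CR. Of these 12, 10 had estimates below 0 and 3 had a 95% interval, unadjusted, that lay wholly below 0, the lowest being A_72_P598438 at −0.15 ± 0.07 (adjusted p = 0.16, limma). Of the 17 tested probes, 6 towards the 3′ end share stretches of at least 20 bases with each other, so they too are partly 1 measurement.

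**Figure D3:**
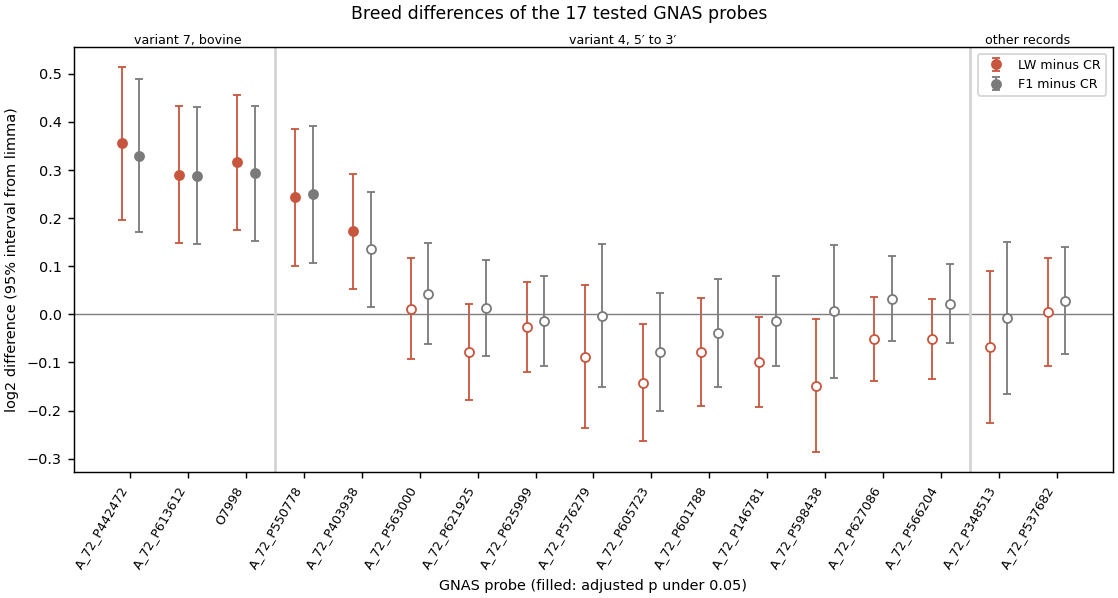
Log2 difference LW minus CR and F1 minus CR (y axis, bars are 95% intervals from limma) of the 17 tested GNAS probes (x axis). They are ordered from 5′ to 3′ within transcript variants 7 and 4, with probe O7998 beside its overlapping partner. The figure marks O7998 as bovine, but the species of its record was not checked. Filled points were called, and for LW minus CR the called probes lie between 0.17 and 0.36 and the others between −0.15 and 0.01.

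A difference between the ends of transcripts also moved with breed in other genes. A score was made for each array as the median difference between the most 5′ and most 3′ probe of 1648 transcript records whose probes lie at least 500 bases apart, with no member among them. It was −0.04 ± 0.03 (SD) in the 12 CR pigs, 0.01 ± 0.03 in the F1 pigs and 0.03 ± 0.04 in the LW pigs. LW exceeded CR by 0.07 (permutation p = 0.00016, two-sided, 100000 permutations of breed over both temperatures together). F1 exceeded CR by 0.05 (permutation p = 0.0028). F1 and LW differed by −0.02 (permutation p = 0.17), and hot and 24 °C pigs by 0.01 (permutation p = 0.68).

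With this score as a covariate in limma, 0 of the 28 member probes were called in LW minus CR and 0 in F1 minus CR, and the calls over all tested probes fell to 2229 and 518. The difference of A_72_P442472 was then 0.09 ± 0.07 for LW minus CR (adjusted p = 0.58) and 0.15 ± 0.06 for F1 minus CR (adjusted p = 0.34). The score itself differs between the breeds, with ranges that overlap (−0.08 to 0.01 in CR and −0.03 to 0.10 in LW). This model therefore also takes out part of the breed difference of any gene. How much of a difference goes with breed and how much with the score cannot be settled in these 36 arrays.

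**Figure D4:**
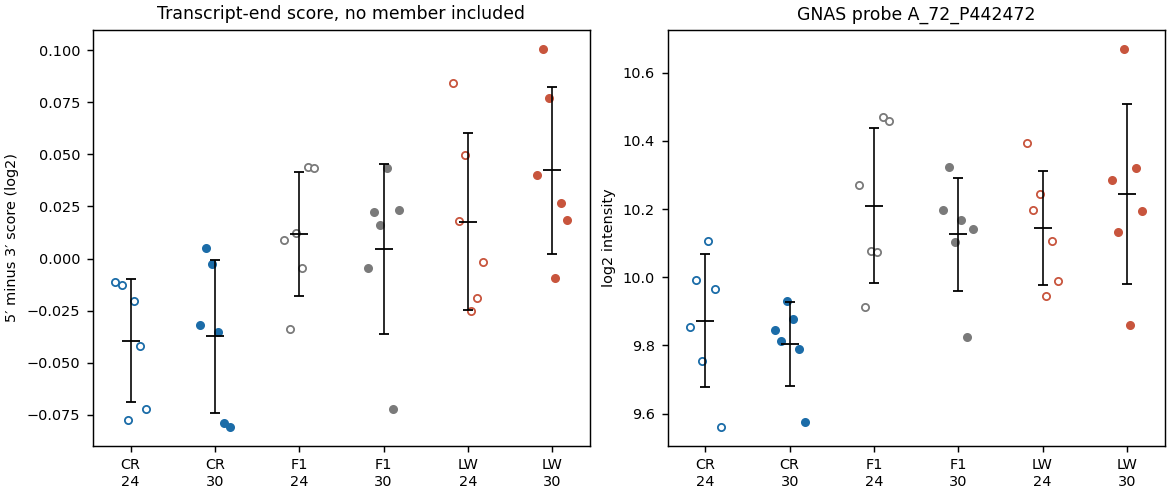
Left, the median over 1648 transcript records of the difference between the 5′ and 3′ probes, each record set against its mean over the 36 arrays (y axis, log2). Right, the log2 intensity of GNAS probe A_72_P442472 (y axis). Both show the 36 pigs by breed and labelled temperature (x axis, °C), with open points for 24 °C, filled points for hot pigs and bars for mean ± SD of 6 pigs. CR pigs have the lowest mean in both panels.

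PRKACA was lower in LW than in CR pigs on both probes. On A_72_P090021 the CR pigs ranged from 12.93 to 13.17 (median 13.01) and the LW pigs from 12.78 to 12.97 (median 12.91), and all 12 LW pigs lay below the CR mean. The difference was −0.13 ± 0.04 (adjusted p = 0.017, limma), a permutation test of the same difference gave p = 2.0e-05 (1 of 12 probes so tested, unadjusted), and the other probe gave −0.15 ± 0.05 (adjusted p = 0.043). F1 minus CR was −0.04 ± 0.04 on A_72_P090021 and 0.01 ± 0.05 on O14590, neither of which was called. With the end score as a covariate the LW difference on A_72_P090021 was −0.09 ± 0.05 (adjusted p = 0.31).

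PRKACB, which encodes another catalytic subunit of the kinase, was higher in LW than in CR pigs on both probes. On A_72_P236767 the CR pigs ranged from 10.22 to 10.72 (median 10.38), the F1 pigs from 10.20 to 11.14 (median 10.82) and the LW pigs from 10.09 to 11.29 (median 10.82). LW exceeded CR by 0.37 ± 0.12 (adjusted p = 0.043), a call that was lost when any one of 15 single pigs was left out, and F1 exceeded CR by 0.30 ± 0.12 (adjusted p = 0.18). On O11838, LW exceeded CR by 0.23 ± 0.06 (adjusted p = 0.0098), and this was called with each of the 36 pigs left out in turn.

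The receptor was lowest in F1 pigs, but the difference was not called. F1 pigs ranged from 7.97 to 8.92 (median 8.52), CR pigs from 8.11 to 9.09 (median 8.76) and LW pigs from 8.48 to 9.03 (median 8.84). TSHR in F1 was 0.29 ± 0.10 below LW (permutation p = 0.010, limma adjusted p = 0.14), with 10 of 12 F1 pigs below the LW mean, and 0.23 ± 0.10 below CR (permutation p = 0.062, limma adjusted p = 0.22). LW and CR differed by 0.06 ± 0.10.

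ADCY6 separated single pigs more than any other member. On O13026 the 12 CR pigs lay between 6.57 and 7.15, while F1 pigs ranged from 6.76 to 9.69 and LW pigs from 6.61 to 9.36. No pig had a value between 7.22 and 8.17. Above that gap lay 12 pigs, 6 F1 and 6 LW, of which 8 were at 24 °C and 4 were hot. Below it lay the other 24, all CR pigs among them. Which of these pigs were littermates was not in the labels.

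The other ADCY6 probe, A_72_P192417, moved together with O13026 within groups (Pearson's r = 0.75 over 36 pigs after subtracting group means, a description of 2 probes of 1 gene). On it 6 F1 and 6 LW pigs lay above the highest CR pig, at 9.04, and 2 F1 and 3 LW pigs below the lowest, at 8.42. On O13026, LW exceeded CR by 0.91 ± 0.33 (adjusted p = 0.061) and F1 exceeded CR by 0.97 ± 0.33 (adjusted p = 0.094), neither of which was called, with unadjusted permutation p-values of 0.0097 and 0.0062. These means average over the 2 ranges of the F1 and LW values.

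ADCY3 and PRKACB were also spread more widely in F1 and LW. The within-group SD of ADCY3 was 0.09 in CR, 0.27 in F1 and 0.30 in LW, with 6 F1 and 5 LW pigs above the highest CR pig and 3 of each below the lowest. For PRKACB probe A_72_P236767 the SDs were 0.15, 0.32 and 0.43, and for ADCY6 probe O13026 they were 0.16, 1.02 and 1.06. Over all tested probes the median ratio of SDs was 0.97 for F1 to CR and 0.99 for LW to CR. The ratio of O13026 for LW to CR, 6.73, was above that of 99.97% of tested probes.

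A test of spread was added after these values were seen, as limma on the absolute deviations from group medians over all tested probes. It called 0 of the 28 member probes and 95 of all tested probes (0.206%), 87 of them wider in CR. At an unadjusted p under 0.05, limma gave 3119 of the 46222 tested probes. Among these were 4 member probes (2 of ADCY6, 1 each of ADCY3 and PRKACB), all wider in F1 and LW. Their adjusted p-values were 0.34 for both ADCY6 probes, 0.53 for ADCY3 and 0.30 for PRKACB. The second PRKACB probe, O11838, did not share the pattern, and its within-group SD was 0.14 for CR, 0.12 for F1 and 0.18 for LW pigs.

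**Figure D5:**
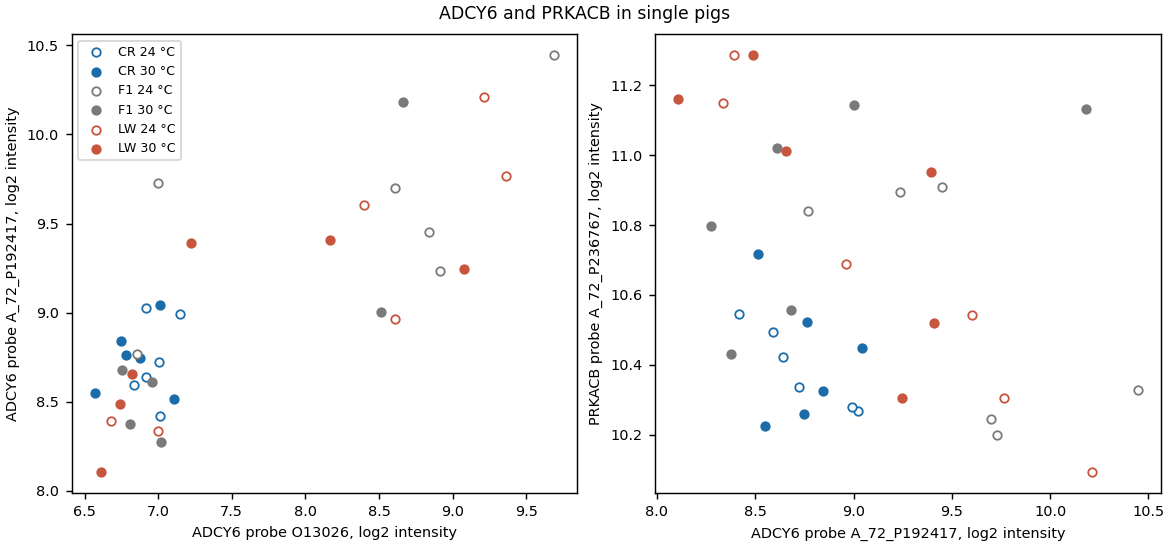
Left, the 2 ADCY6 probes against each other, and right, ADCY6 probe A_72_P192417 against PRKACB probe A_72_P236767, as log2 intensities of single pigs (open, 24 °C; filled, hot). The 12 CR pigs form 1 tight cluster in the left panel, while 12 F1 and LW pigs lie to the right of the gap between 7.22 and 8.17.

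The members' brightest probes were also compared with each other over the 36 pigs after subtracting group means, 28 pairs in all. No pair passed adjustment over the 28. The strongest was ADCY6 with PRKACB, with Pearson's r = −0.51 (permutation p = 0.013, adjusted p = 0.31) and Spearman's rho = −0.56 (permutation p = 0.0049, adjusted p = 0.14). It was −0.62 without the 2 pigs farthest from the ADCY6 median, −0.43 without the 2 farthest from the PRKACB median and −0.46 with slide means taken out. Within breeds it was −0.48 in CR, −0.01 in F1 and −0.89 in LW, so it was not seen in F1. TSHR had its highest r with PRKACA, 0.37 (permutation p = 0.038, adjusted p = 0.36; Spearman's rho = 0.29, permutation p = 0.10), which was 0.22 without the 2 pigs farthest from the TSHR median and 0.18 without the 2 farthest from the PRKACA median.

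Among 9259 named genes, those whose brightest probe followed TSHR most closely over the same residuals were MEA1, KIF13B, EXOC4, HIST1H2BD and NEIL1. Their r ran from 0.545 for NEIL1 to 0.552 for MEA1, against a median of 0.0033 over all genes compared. These values are the top of a long list and are given as a description.

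The other genes of the route were taken from 11 lists, which held 75 genes with a tested probe. Under heat, 3 of the 75 (4%) were called, against 1.18% of all tested probes. These shares, here and below, are not like for like. The lists count the brightest probe of each gene and were chosen with earlier results of these data known. All 3 were lower, as were 405 of all 545 called probes, and all 3 belonged to the list of 8 tested early genes with cAMP response elements in their promoters. FOS, a subunit of the AP-1 transcription factor, fell by 1.58 ± 0.31 (adjusted p = 0.0022, limma) with all 5 of its probes called. DUSP1, a phosphatase of MAP kinases, fell by 0.79 ± 0.13 (adjusted p = 0.00016), and PER1, a core clock gene, fell by 0.50 ± 0.12 (adjusted p = 0.033). These genes respond to many signals besides cAMP. The other 5 tested genes of that list were not called, and its median change was −0.04 against 0.01 over all tested probes.

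None of the 7 tested genes of thyroid hormone synthesis was called under heat, among them TG, the hormone precursor (−0.01 ± 0.09), and SLC5A5, the iodide transporter (0.20 ± 0.20). Nor was any of the 8 tested phosphodiesterase genes outside the set, of which 4 were higher and 4 lower. PDE4B was 0.21 ± 0.11 higher (adjusted p = 0.58) and PDE1C 0.19 ± 0.10 lower (adjusted p = 0.56). All 4 tested genes of regulatory subunits and inhibitors of protein kinase A had estimates above 0, with a median change of 0.05 and 0 called.

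Between LW and CR, 7 of the 75 genes (9.33%) were called, a smaller share than the 12.9% of all tested probes. RAP1A, a small GTPase downstream of the cAMP sensor EPAC, was 0.60 ± 0.08 higher in LW (adjusted p = 2.2e-06), although only 3 of its 8 tested probes were called and 7 had this sign. POPDC3, a cAMP-binding popeye protein gene, was 0.34 ± 0.10 higher. AKAP9, an anchoring protein of the kinase, was 0.15 ± 0.04 higher, PRKAR1A, a regulatory subunit, 0.19 ± 0.06 higher, and DUSP1 0.63 ± 0.16 higher. GNAI1 and GNAO1, alpha subunits of inhibitory G proteins, were lower in LW, with GNAI1 at −0.24 ± 0.05 (adjusted p = 0.00037) and GNAO1 at −0.38 ± 0.12 (adjusted p = 0.024).

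Between F1 and CR, 1 of the 75 genes (1.33%) was called, against 3.38% of all tested probes. It was RAP1A, higher in F1 by 0.34 ± 0.08 (adjusted p = 0.011). Between F1 and LW, 2 (2.67%) were called, against 1.99% of all tested probes, with GNAI1 higher in F1 by 0.22 ± 0.05 (adjusted p = 0.0059) and DUSP1 at −0.62 ± 0.16 (adjusted p = 0.028).

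Markers of other cell types moved with breed. Of 6 tested adipocyte markers 4 were called lower in LW than in CR, with ADIPOQ at −1.21 ± 0.23 and PLIN1 at −1.20 ± 0.18. The summed intensity of the list lay between 15550 and 44455 units in CR pigs, between 19325 and 48380 in F1 pigs and between 16647 and 33343 in LW pigs. Of 7 endothelial markers 3 were called higher in LW than in CR, and only 5 of the 7 had estimates above 0. The summed ranges were 35519 to 47355 in CR and 41019 to 57883 in LW. Under heat the erythroid marker HBB was called lower, at −1.004 ± 0.19. The part of these cells in the members' values was not tested, and in whole tissue fewer cells of a type and less RNA per cell cannot be told apart.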

How the data were processed

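Per the file headers, the deposited scanner output gives the median and mean intensity and the background of each spot, made by the authors with Agilent Feature Extraction 10.10.1.1. The authors also deposited a table of log2 normalized values for 46097 probes, used here as an alternative. Median intensities were used without background subtraction, 106 non-uniform spots were left out, and arrays were quantile-normalized and taken to log2. Spots of a probe were averaged. Heat and breed differences came from an additive limma model (breed and temperature), and within-breed changes and the interaction from a model of the 6 group means (limma 3.58.1, R 4.3.3), fitted over all 46222 tested probes. The SE of a probe rests on a spread pooled over all groups, also where its groups differ in spread. The study's mixed model with litter, pen and day could not be fitted, since the labels do not give them. The brightest tested probe stood for a gene.

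The members and gene lists were chosen with earlier results of these data known. Text names all members, every list gene called under heat, at most the 3 called genes of a list with the largest change in each breed comparison, and the 5 genes most like TSHR. TG, SLC5A5, PDE4B, PDE1C and the cell type markers with values fall outside this rule and were chosen after their values were seen. The end score, its use as a covariate, the test of spread and the permutation tests of single probes were added after the data were seen. The model was tested on simulated data with real means and spreads. It recovered 61.2% of heat changes of 0.25, 88.1% of 0.5 and 100% of 1 on the log2 scale. For LW minus CR the shares were 52.2%, 85.1% and 95.5%. The simulated noise was independent between arrays, with no litter or slide structure and with 1 spread of a probe for all groups. Each size was planted in 66 or 67 of 46162 probes per comparison. The share of changed probes, on which the adjustment depends, was thus not that of these data, and the shares recovered hold for that setting only. The number of pigs limits the precision.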

Additional observations from a re-analysis of the deposited data

Results flagged for a closer look

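Of 48 groups of 6 pigs (8 genes, brightest probe), 1 held a pig far from the other 5, where chance gives about 1 in 20. In ADCY3, F1 replicate 4 at 24 °C had a log2 intensity of 6.05, and the nearest pig of its group lay at 6.65. With this pig left out the F1 heat estimate of ADCY3 was the lowest of all single-pig omissions, at −0.45.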

How the results depend on the processing

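Under heat, 0 member probes were called under each of the 12 other settings over all breeds and the 10 within each breed, and with each of the 36 pigs left out in turn. The 9 member probes of LW minus CR ran from 6 to 9 with 1 pig left out, and the 4 of F1 minus CR from 3 to 4. With the end score as a covariate both were 0, and all calls were 2229 and 518. Genes called on their brightest probe in LW minus CR were 2, from 1 to 2 with 1 pig left out, 0 with the end score, and 1 with median intensities scaled to the 75th percentile, with no filter on dim probes and with array weights. The gene lost under these 3 settings was PRKACB, with adjusted p-values of 0.054, 0.053 and 0.069. All calls within F1 under heat were 18 with array position as a block, and ran from 68 without F1 replicate 3 at 24 °C to 272 without F1 replicate 4 at 24 °C. They were 72 without F1 replicate 2 at 24 °C, and 92 and 110 without hot F1 replicates 6 and 3. Calls within LW were 2 with array weights and ran from 0 to 16 with 1 pig left out, the highest being 16 without LW replicate 1 at 24 °C and 15 without hot LW replicate 3, with 1 and 2 without hot F1 replicates 1 and 5. No other count of calls moved by over 1.5 times and no direction of a called value turned. The cause of these changes was not tested.

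No paired analysis was possible because the replicate numbers were given in accession order and pair no pigs. GNAS was called on 5 of its 17 tested probes in LW minus CR, and its brightest probe was not among them. TSHR, ADCY3 and CREM have no second probe.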

Other observations

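Of 6 tested markers of the calcitonin-producing C cells of the thyroid, 4 had estimates higher in F1 than in CR pigs and 5 higher in F1 than in LW pigs. The median difference was 0.61 for F1 minus CR and 0.62 for F1 minus LW on the log2 scale. By limma 0 of the 6 was called on its brightest probe in either comparison. Among all their probes, 2 of the 3 CALCB probes were called in F1 minus CR and 1 of the 4 CHGA probes in F1 minus LW. An unadjusted p under 0.05 (limma) was reached by 4 and 3 of the 6, against 17.2% and 13.4% of all tested probes. The summed intensity of the list lay between 54521 and 140618 units in CR pigs, between 71369 and 124227 in F1 pigs and between 62835 and 92943 in LW pigs, so the ranges overlapped.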
